A study of Saccharomyces cerevisiae with 12 samples.

Results

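Bdf1 and Bdf2, the BET proteins of budding yeast, were depleted together in a Saccharomyces cerevisiae strain that carries both as auxin-inducible degron fusions. The comparison takes 6 of the 12 libraries of the series, all from strain RDY73: 3 from cultures given IAA, the auxin that triggers degradation, and 3 from cultures given the solvent DMSO alone. The members were chosen by strain and treatment as the sample labels give them, with no measured value involved. RDY73 was made from BY4705 and is pGPD1-OsTIR1:HIS3, BDF2-3xV5-mAID::KanMX and BDF1-3xV5-mAID::URA3. The plant F-box protein OsTIR1, driven by the constitutive GPD1 promoter, and both degron tags were therefore present in IAA and DMSO cultures alike. Cells grew in YPD, received 1 mM IAA or DMSO for 25 min, and were then labelled with 5 mM 4-thiouracil (4tU) for 4 min, after which Schizosaccharomyces pombe cells labelled in the same way were mixed in as a spike-in. The strain is 1 construct, and no strain without the degron tags is among these libraries, so an effect of IAA itself and the effect of losing both proteins cannot be told apart. The other 6 libraries come from RDY388, made from RDY73, which overexpresses the isolated ET domain of Bdf1. They serve here in the shared estimate of variance, the median-of-ratios size factors and the filter on low counts. A comparison of the strains at flagged genes, given near the end, also uses them.

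BET proteins bind acetylated histone tails through paired bromodomains and act together with the general transcription machinery at RNA polymerase II promoters. In budding yeast Bdf1 and Bdf2 carry out overlapping functions, Bdf1 being the more important of the pair, and cells that lack both do not survive. In SLAM-seq, 4tU enters RNA made during a short pulse, is alkylated, and is read as C in place of T, so that a read with at least 2 such changes (a T>C read) comes mostly from RNA made during the pulse. All reads of a gene together measure the RNA present, most of it older than the pulse. T>C reads are called new RNA below, their level is given as T>C RPM, the reads per 1000000 S. cerevisiae reads of the library, and all reads of a gene are called its total reads. No library made without 4tU was analysed here, so the T>C reads that arise without label were not measured.

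The IAA libraries held 9368112, 6279282 and 8827712 S. cerevisiae reads (replicates A, B and C), and the DMSO libraries 10127782, 10807764 and 9050357. Of these, 121225, 90321 and 121781 were T>C reads with IAA, against 270874, 290721 and 234920 with DMSO. The labelled share was 1.37% ± 0.0726 with IAA and 2.65% ± 0.0506 with DMSO (SD, n = 3 each), a difference of -1.28 percentage points. Every IAA library lay below every DMSO library (exact two-sided permutation test, p = 0.1, the smallest value that 3 against 3 libraries allow). The spike-in showed no such gap, with 2.72% ± 0.274 of S. pombe reads labelled in the IAA libraries and 2.88% ± 0.301 in the DMSO libraries (exact permutation test, p = 0.5). Per labelled S. pombe read, the IAA libraries held 7.29 ± 0.562 labelled S. cerevisiae reads and the DMSO libraries 15.2 ± 2.25. Per S. pombe read of any kind, they held 14.4 ± 0.308 S. cerevisiae reads with IAA and 16.3 ± 0.837 with DMSO. As these are bulk samples, fewer cells and less RNA per cell cannot be told apart. The degron acts on protein, and the files hold no protein measurement: BDF1 gave 6.94, 6.69 and 7.82 T>C RPM with IAA, against 6.42, 7.96 and 7.40 with DMSO, and BDF2 10.7, 15.1 and 10.6 T>C RPM with IAA, against 14.4, 12.1 and 15.6 with DMSO. Loci that BY4705 lacks had few reads in all 6 libraries, with at most 60 for ADE2, 41 for TRP1, 8 for LEU2, 4 for MET17 and 3 for LYS2.

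New RNA fell at most genes. Of 3677 genes with at least 1 T>C read in each of the 12 libraries, 2930 (79.7%) fell after depletion and 34 (0.925%) rose, when T>C reads were scaled by each library's S. cerevisiae reads (edgeR quasi-likelihood test, Benjamini-Hochberg adjusted p under 0.05). The median gene fell by 1.61 on the log2 scale, a 3.05-fold reduction of new RNA. The central 90% of genes lay between -2.96 and 0.04, so the fall differed widely between genes. With size factors of all reads in place of the sum, which set the typical gene of the total reads to no change, the median change of new RNA lay 1.14 higher, and 1054 genes fell and 525 rose. Total reads fell less, by 0.96 at the median gene (1.94-fold), with 2659 genes (72.3%) lower and 330 (8.97%) higher. Their changes formed a broad peak of fallen genes and a smaller one near 0, and the central 90% lay between -2.05 and 0.38. Because total reads are scaled to a fixed sum, a fall at most genes went with a larger share for the others: the 100 genes with the most reads in each group held 59.0% of total reads with IAA and 49.6% with DMSO. In T>C reads the 100 leading genes of each group held 43.4% with IAA and 29.0% with DMSO.

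**Figure D1:**
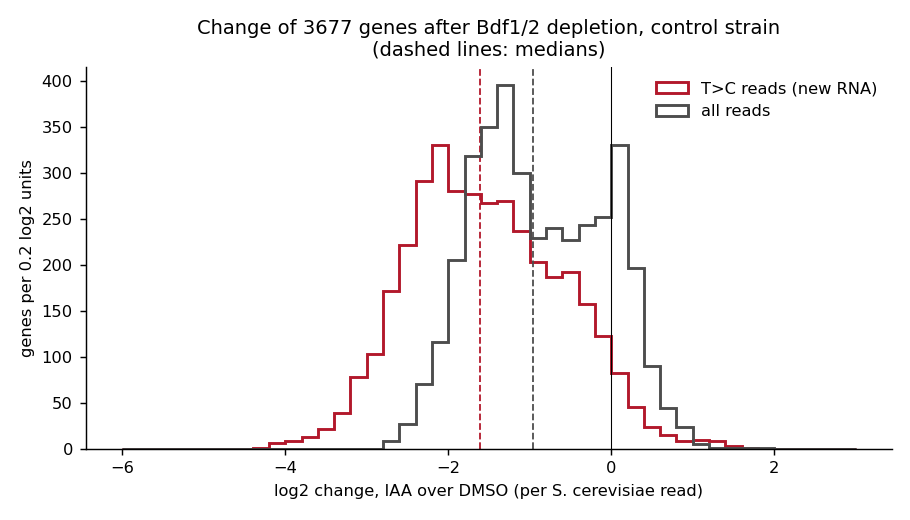
Histogram of the log2 change with IAA over DMSO for 3677 genes, with T>C reads in red and total reads in grey. The horizontal axis is the log2 change per S. cerevisiae read and the vertical axis the number of genes per 0.2 log2 units. Dashed lines mark the medians, -1.61 for T>C reads and -0.96 for total reads, and the solid line marks no change.

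To ask which genes fell most and least, T>C reads were also scaled so that the typical gene did not change, and each gene was tested against that centre. By this measure 479 genes (13.0%) fell further than the median gene and 848 (23.1%) fell less or rose, referred to here as below and above the median gene. Without replicate A of the IAA libraries, 314 genes were below. The same centring of total reads placed 1503 genes (40.9%) below and 1512 (41.1%) above. New and total RNA mostly moved the same way: of the 479 genes below in new RNA, 429 (89.6%) were also below in total reads and 15 were above, and of the 848 genes above in new RNA, 830 (97.9%) were above in total reads and 0 below. T>C reads are a part of the total reads of the same libraries, so these counts are not independent of each other. Across 3677 genes the changes of T>C and total reads had a Pearson r of 0.814 and a Spearman rho of 0.812. The IAA and DMSO libraries did not overlap, relative to the median gene, at 432 of the 479 genes below and 788 of the 848 above. The genes were called by a test on these same libraries, so the lack of overlap is no separate support. The share of all tested genes without overlap is not given here. The test was less sensitive below than above. In simulated counts it recovered 14 of 42 genes (33.3%) at a log2 change of -1 and 25 of 49 (51%) at 1. At changes of -2 and 2 it recovered 60% and 100%, so the numbers of genes below and above are not directly comparable.

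**Figure D2:**
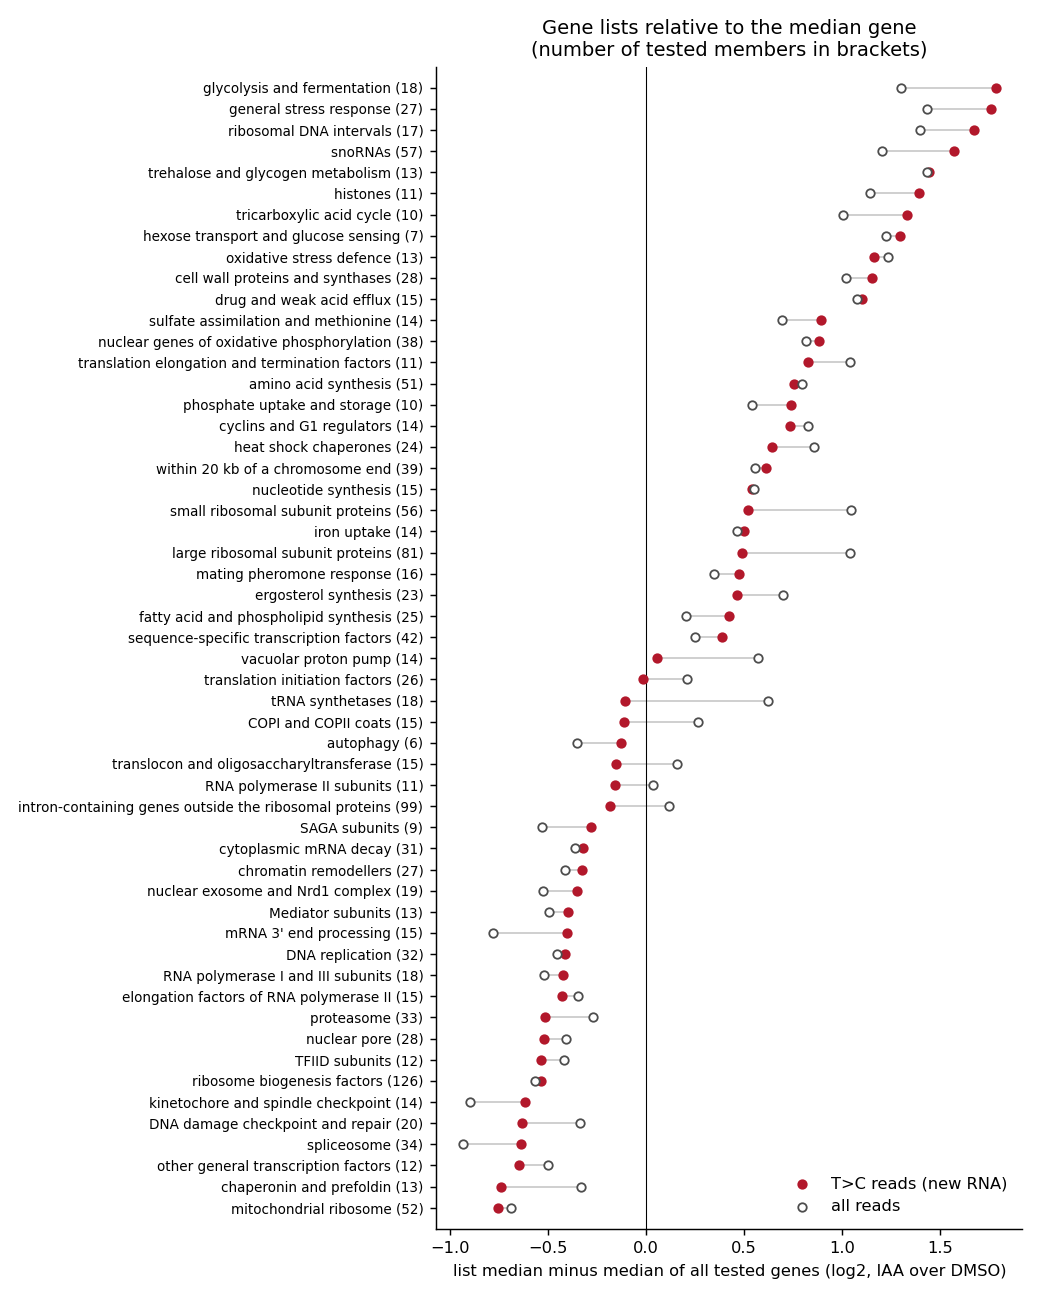
Median log2 change of each gene list minus the median of all 3677 tested genes, IAA over DMSO, for lists with at least 6 tested genes. Filled red points show T>C reads, open points total reads, and the number of tested genes stands in parentheses. Glycolysis (1.78) and the general stress response (1.76) lie far to the right and the mitochondrial ribosome (-0.75) far to the left, and ribosomal proteins lie further right in total reads than in T>C reads.

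Lists of genes with a shared function lay at quite different distances from the median gene. For each list, the value given below is the median log2 change of its tested members minus the median over all 3677 genes, so that 0 is the typical fall. Among lists with at least 10 tested members, the medians for new RNA ran between -0.75 (mitochondrial ribosome) and 1.78 (glycolysis and fermentation). The calls of single genes are from the test against the median gene, and a gene above it may still have fallen per S. cerevisiae read. The counts of members called stand beside the 13.0% of all tested genes below and 23.1% above. The 10 genes furthest below and the 10 furthest above were chosen among genes whose IAA and DMSO libraries do not overlap relative to the median gene, so where such a gene is said to be separated, the choice had required it.

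Glycolytic genes lay furthest above the median gene among lists with at least 10 tested members. Glycolysis and alcoholic fermentation, which supply nearly all the energy of yeast growing on glucose, had 19 listed genes, of which 18 were tested and 18 lay above the median gene. The list median was 1.78 in T>C reads and 1.30 in total reads. Per S. cerevisiae read, 8 of the 18 rose in new RNA and 0 fell, and with scaling by S. pombe reads 3 of the 8 (GLK1, TDH2 and ENO1) still rose. The interval of GLK1 overlaps another on the same strand. The list held 6.99% ± 0.367 of all T>C reads with IAA and 3.19% ± 0.109 with DMSO (SD, n = 3 each). TDH2, which encodes glyceraldehyde-3-phosphate dehydrogenase, had 39.7, 46.8 and 40.7 T>C RPM with IAA, against 21.0, 20.9 and 18.3 with DMSO. All 3 IAA libraries were above all 3 DMSO libraries, and the gene lay above the median gene by 2.62 ± 0.13 (SE, adjusted p = 1.2e-37) in T>C reads and by 1.76 in total reads. Its paralogue TDH3 had 128, 172 and 137 T>C RPM with IAA, against 157, 154 and 144 with DMSO, and lay above the median gene by 1.48 ± 0.09 (SE, adjusted p = 6.3e-29). For TDH3 the groups overlapped per S. cerevisiae read, so the gene stands out only against the fall of the others. ENO1, an enolase gene, had 17.2, 20.7 and 22.4 T>C RPM with IAA, against 11.3, 11.5 and 9.61 with DMSO, 2.44 ± 0.15 (SE, adjusted p = 4.2e-30) above the median gene. PGK1 (phosphoglycerate kinase) and ADH1 (alcohol dehydrogenase) lay above it by 1.69 and 1.79 (adjusted p = 1.3e-32 and 1.4e-34).

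Genes of the general stress response, which Msn2 and Msn4 activate through stress response elements when growth is disturbed, came next at this end. Ribosomal DNA intervals and small nucleolar RNAs, described further on, followed with medians of 1.67 and 1.57 in T>C reads. Of 39 listed genes of the general stress response 27 were tested, 21 of them lay above the median gene and 0 below, and the list median was 1.76 in T>C reads and 1.43 in total reads. Per S. cerevisiae read 6 rose, of which 3 (HSP12, DDR2 and STF2) still rose with scaling by S. pombe reads. HSP12, which encodes a small membrane-protecting heat shock protein, had 7.90, 14.0 and 11.0 T>C RPM with IAA, against 3.46, 4.26 and 4.42 with DMSO. DDR2, a stress-induced gene of unknown molecular function, had 9.50, 12.6 and 11.3 T>C RPM with IAA, against 3.36, 3.98 and 5.30 with DMSO. The IAA libraries of both genes were all above the DMSO libraries. HSP12 lay above the median gene by 2.96 ± 0.20 (SE, adjusted p = 1.6e-26) in new RNA and by 1.73 in total reads, and DDR2 by 2.95 ± 0.20 (SE, adjusted p = 3e-26) and 2.09. HOR7, a hyperosmolarity-responsive gene and the most read of the list, was 1.80 above (adjusted p = 9.6e-29). Trehalose and glycogen metabolism, the storage carbohydrates of stressed cells, had 8 of 13 tested genes above and 0 below, out of 21 listed, with a median of 1.44 in T>C reads and 1.43 in total reads. TSL1, a subunit of trehalose synthase, was 2.05 ± 0.33 (SE, adjusted p = 9.5e-08) above the median gene in T>C reads.

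The promoter windows of 4 of these genes, from 350 to 101 bases before the start codon, are shown because they carry the motif words that were most frequent among genes above the median gene. They were read from the R64 genome, 5′ to 3′ on the strand of the gene. In HSP12 and DDR2 capitals mark the stress response element AGGGG or its reverse complement, with 2 and 3 matches, and in TDH2 and ENO1 they mark a TATA box, with 1 match each.
HSP12, chrVI:106906-107155, strand +: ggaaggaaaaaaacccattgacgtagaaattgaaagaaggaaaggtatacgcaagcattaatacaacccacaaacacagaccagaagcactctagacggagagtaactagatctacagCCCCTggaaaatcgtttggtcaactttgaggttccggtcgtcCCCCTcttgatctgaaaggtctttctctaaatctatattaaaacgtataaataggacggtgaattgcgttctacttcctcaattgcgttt
DDR2, chrXV:231856-232105, strand -: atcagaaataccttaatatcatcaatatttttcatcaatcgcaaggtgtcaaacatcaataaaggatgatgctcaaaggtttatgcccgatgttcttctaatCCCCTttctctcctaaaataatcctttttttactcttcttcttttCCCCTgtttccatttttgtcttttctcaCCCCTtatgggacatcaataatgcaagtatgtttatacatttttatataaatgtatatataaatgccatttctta
TDH2, chrX:454782-455031, strand -: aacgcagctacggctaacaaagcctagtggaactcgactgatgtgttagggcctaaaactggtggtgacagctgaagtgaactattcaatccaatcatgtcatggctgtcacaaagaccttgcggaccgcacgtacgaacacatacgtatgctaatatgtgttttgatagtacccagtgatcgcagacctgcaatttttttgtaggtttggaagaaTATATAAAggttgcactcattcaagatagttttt
ENO1, chrVII:1000577-1000826, strand +: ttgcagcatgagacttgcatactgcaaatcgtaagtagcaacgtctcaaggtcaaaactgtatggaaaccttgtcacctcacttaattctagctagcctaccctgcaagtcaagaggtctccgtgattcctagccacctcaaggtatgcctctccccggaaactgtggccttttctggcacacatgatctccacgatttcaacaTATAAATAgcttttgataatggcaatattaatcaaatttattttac

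HRP1 and NRD1 were the only genes of RNA processing among the 10 genes furthest above the median gene that were chosen by size. HRP1 encodes an RNA-binding subunit of the cleavage factor that forms mRNA 3′ ends, and NRD1 the RNA-binding protein of the complex that ends short noncoding transcripts. HRP1 had 4.27, 5.73 and 3.85 T>C RPM with IAA, against 2.37, 1.67 and 1.66 with DMSO. For NRD1 the values were 2.99, 3.98 and 4.87 T>C RPM with IAA, against 1.38, 1.85 and 1.77 with DMSO. Both rose per read (log2 1.25 and 1.23, adjusted p = 7.1e-05 and 0.00027). Their total reads lay 2.36 and 2.81 above the median gene. NAB3, the partner of Nrd1, was 0.17 ± 0.17 (SE, adjusted p = 0.45) from the median gene and did not pass the test. The list of HRP1 as a whole lay lower: of 15 tested 3′ end processing genes 3 lay below and 1 above, with a median of -0.40 in T>C reads and -0.78 in total reads.

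**Figure D3:**
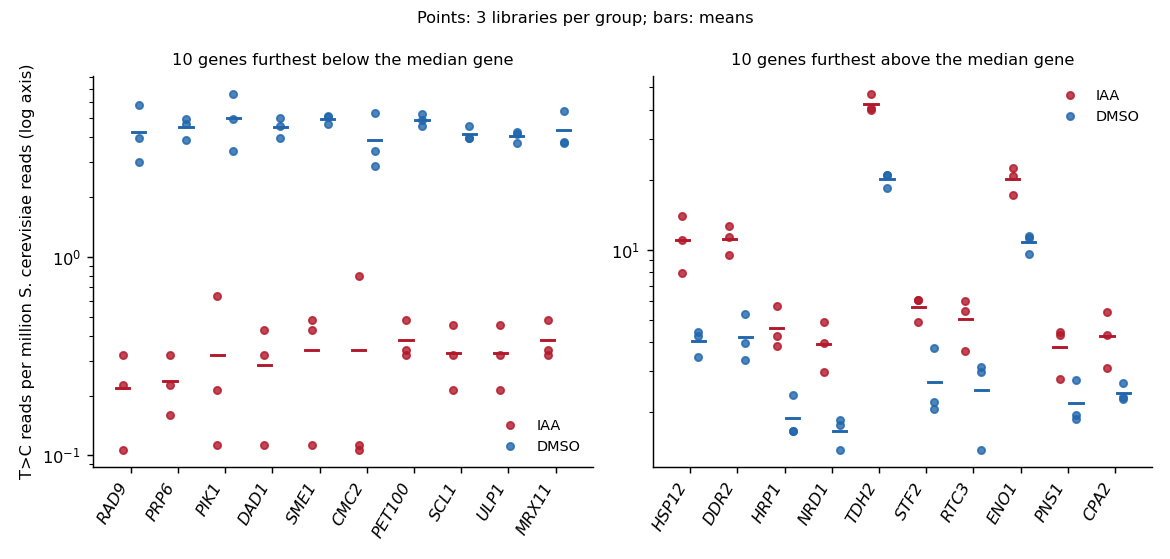
T>C RPM in each library (log axis) for the 10 genes furthest below and the 10 furthest above the median gene, with IAA in red and DMSO in blue. Points are libraries and bars are means of 3. RAD9 has between 0.107 and 0.319 with IAA and between 2.98 and 5.83 with DMSO, and HSP12 between 7.90 and 14.0 with IAA and between 3.46 and 4.42 with DMSO.

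Genes that protect cells from oxidants and toxic compounds, and heat shock chaperones, also fell less than the median gene, though many still fell. Per S. cerevisiae read, 9 of 13 tested oxidative stress defence genes, 7 of 15 efflux genes and 23 of 24 chaperone genes fell in new RNA, and 0 rose. The median falls were 1.36-fold, 1.42-fold and 1.95-fold. All 13 tested genes of oxidative stress defence, out of 13 listed, lay above the median gene, with a list median of 1.16 in T>C reads and 1.23 in total reads. Their share of T>C reads was 6.22% ± 0.389 with IAA and 4.02% ± 0.26 with DMSO. TRX2, a cytoplasmic thioredoxin, had 256, 252 and 277 T>C RPM with IAA, against 262, 333 and 282 with DMSO. The groups overlapped per read, and relative to the median gene TRX2 was 1.39 ± 0.09 (SE, adjusted p = 2.9e-28) higher. OYE2, an NADPH oxidoreductase, and AHP1, a peroxiredoxin, were 1.08 and 1.11 above (adjusted p = 2.7e-20 and 6.3e-18). Drug and weak acid efflux had 12 of 15 tested genes above and 0 below, out of 20 listed, with a median of 1.10 in T>C reads and 1.07 in total reads. PDR5, the main multidrug exporter, was 0.99 ± 0.11 (SE, adjusted p = 2.7e-14) above the median gene in new RNA. Heat shock chaperones had 20 of 24 tested genes above and 0 below, all 24 listed genes being tested, with a median of 0.64 in T>C reads and 0.86 in total reads. The Hsp90 gene HSC82 was 0.93 ± 0.10 (SE, adjusted p = 1.4e-14) above.

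Histone genes, transcribed in S phase, had 9 of 11 tested genes above the median gene and 0 below, out of 11 listed, with a median of 1.39 in T>C reads and 1.14 in total reads. HHF2, one of the histone H4 genes, had 55.7, 64.7 and 60.7 T>C RPM with IAA, against 64.2, 69.7 and 69.3 with DMSO. These groups overlapped per read, and HHF2 was 1.38 ± 0.10 (SE, adjusted p = 1.2e-23) above the median gene. Cell wall proteins and synthases, which build the glucan and mannoprotein coat, had 23 of 28 tested genes above and 0 below, out of 31 listed, with a median of 1.15 in T>C reads and 1.02 in total reads. CCW12, a mannoprotein, was 1.50 ± 0.10 (SE, adjusted p = 4.4e-28) above the median gene. Cyclins and G1 regulators were mixed, with 8 of 14 tested genes above and 1 below, out of 16 listed. The G1 cyclin PCL1 had 9.61, 9.24 and 8.50 T>C RPM with IAA, against 6.71, 6.11 and 6.52 with DMSO, so that each IAA library exceeded each DMSO library, and it was 2.06 ± 0.19 (SE, adjusted p = 6.2e-18) above the median gene.

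Respiratory genes and the genes of mitochondrial translation lay on opposite sides of the median gene. Of the 10 tested genes of the tricarboxylic acid cycle (11 listed) 6 were above and 0 below, with a median of 1.33 in T>C reads and 1.00 in total reads, and ACO1 (aconitase) was 1.47 ± 0.18 (SE, adjusted p = 2.2e-12) above. The nuclear genes of oxidative phosphorylation had 24 of 38 tested genes above and 0 below, out of 38 listed, with a median of 0.88 in T>C reads and 0.82 in total reads. QCR6, a subunit of the cytochrome bc1 complex, was 1.55 ± 0.15 (SE, adjusted p = 2.5e-17) above. Proteins of the mitochondrial ribosome, also encoded in the nucleus, went the other way: of 68 listed genes 52 were tested, 15 of them lay below and 0 above, and the median was -0.75 in T>C reads and -0.69 in total reads. MRPL32, a protein of its large subunit and the most read member, had 1.71, 3.66 and 2.27 T>C RPM with IAA, against 13.2, 13.9 and 13.1 with DMSO. Every IAA library was under every DMSO library, and MRPL32 lay at -0.91 ± 0.23 (SE, adjusted p = 0.00069) relative to the median gene.

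Cytoplasmic ribosomal proteins were the lists that held the most total reads, and they lay higher above the median gene in total than in new RNA. Of 81 large subunit and 56 small subunit genes all were tested, and 45 and 36 lay above the median gene in new RNA and 0 below. Their medians were 0.49 and 0.52 in T>C reads, against 1.04 and 1.05 in total reads, where 79 and 56 genes were above. Per S. cerevisiae read, 80 of the 81 and 55 of the 56 fell in new RNA. Large subunit genes held 9.80% ± 0.321 of T>C reads with IAA and 9.79% ± 0.173 with DMSO, and 31.9% ± 1.28 of total reads with IAA and 27.9% ± 0.426 with DMSO. The labelled share of the median large subunit gene was 0.466% with IAA and 1.10% with DMSO, which is under the share of all reads in either condition. RPS8B, a small subunit protein, had 46.2, 33.6 and 39.4 T>C RPM with IAA, against 65.0, 68.1 and 62.8 with DMSO. Its total reads came to 2148, 1692 and 2042 RPM of total reads with IAA, against 1935, 2062 and 1950.5 with DMSO. New RNA of RPS8B was thus lower in every IAA library, while total reads were not separated between the groups. Many ribosomal protein genes have near-identical copies, between which reads may be divided, so values of single paralogues are uncertain, as they are for copies of the histone and TDH genes. Translation elongation and termination factors had 7 of 11 tested genes above, out of 12 listed, with a median of 0.83 in T>C reads and 1.04 in total reads.

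Ribosome biogenesis factors, the proteins that process and assemble rRNA, lay below the median gene far more often than above it. Of 134 listed genes 126 were tested, 53 lay below and 3 above the median gene, and the median was -0.54 in T>C reads and -0.57 in total reads. They held 1.95% ± 0.0125 of T>C reads with IAA and 3.96% ± 0.151 with DMSO. The 3 most read members lay closer to the median gene than the list did, with RRP14 at 0.24 ± 0.14 (SE, adjusted p = 0.16), EBP2 at -0.25 (adjusted p = 0.23) and RLP7 at -0.39 (adjusted p = 0.021). Chosen after their values were seen, CGR1 and DBP7, which act in 60S subunit assembly, show the fall with a motif of this class in their promoters. CGR1 had 0.32, 1.11 and 1.02 T>C RPM with IAA, against 6.52, 7.31 and 7.84 with DMSO. DBP7, an RNA helicase, had 0.32, 0.637 and 1.02 T>C RPM with IAA, against 4.84, 4.35 and 6.30 with DMSO. In both genes the IAA libraries lay under the DMSO libraries, and the genes were at -1.65 ± 0.34 (SE, adjusted p = 3.2e-05) and -1.41 ± 0.38 (SE, adjusted p = 0.002) relative to the median gene. RNA polymerase I and III subunits, which make rRNA and tRNA, had 3 of 18 tested genes below and 0 above, out of 19 listed, with a median of -0.42 in T>C reads and -0.52 in total reads. The share below, 16.7%, was near the 13.0% of all tested genes.

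Promoter windows of CGR1 and DBP7, taken in the same way from R64, carry 1 and 2 copies of the PAC element GATGAG or its reverse complement, in capitals.
CGR1, chrVII:439713-439962, strand +: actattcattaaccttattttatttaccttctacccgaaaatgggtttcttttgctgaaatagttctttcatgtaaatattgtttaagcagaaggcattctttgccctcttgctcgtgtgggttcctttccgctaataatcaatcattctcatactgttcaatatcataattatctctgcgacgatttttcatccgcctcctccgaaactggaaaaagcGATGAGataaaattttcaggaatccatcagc
DBP7, chrXI:487473-487722, strand -: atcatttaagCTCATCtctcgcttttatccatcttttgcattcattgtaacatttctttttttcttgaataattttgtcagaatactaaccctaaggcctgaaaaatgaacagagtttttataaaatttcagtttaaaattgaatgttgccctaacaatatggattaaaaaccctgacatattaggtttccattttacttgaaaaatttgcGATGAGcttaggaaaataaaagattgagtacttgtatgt

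Several complexes of RNA and protein handling had members below the median gene and almost none above. The spliceosome had 15 of 34 tested genes below and 0 above, out of 64 listed, with a median of -0.64 in T>C reads and -0.94 in total reads. PRP6, of the U4/U6-U5 particle, had 0.32, 0.159 and 0.227 T>C RPM with IAA, against 4.94, 3.89 and 4.64 with DMSO, and SME1, the Sm protein E, had 0.427, 0.478 and 0.113 T>C RPM with IAA, against 4.64, 5.09 and 5.08 with DMSO. Neither gene overlapped between the groups, and they lay at -2.60 ± 0.50 (SE, adjusted p = 7.6e-06) and -2.33 ± 0.45 (SE, adjusted p = 9.9e-06) relative to the median gene. The IAA levels of PRP6 and SME1, and of SCL1 below, rest on very few T>C reads. The proteasome had 12 of 33 tested genes below and 0 above, all 33 listed genes being tested, with a median of -0.52 in T>C reads and -0.27 in total reads. SCL1, a subunit of its catalytic core, had 0.213, 0.319 and 0.453 T>C RPM with IAA, against 4.54, 3.98 and 3.98 with DMSO, so its groups did not overlap. It lay at -2.09 ± 0.47 (SE, adjusted p = 0.00017) in new RNA and -0.53 in total reads, whereas RPN1, the most read subunit gene, was at 0.05 ± 0.21 (SE, adjusted p = 0.88). The chaperonin and prefoldin, which fold actin and tubulin, had 4 of 13 tested genes below and 0 above, out of 14 listed, with a median of -0.74 in T>C reads and -0.33 in total reads. RPN4, the transcription factor of proteasome genes, lay on the other side, at 1.71 ± 0.13 (SE, adjusted p = 2.1e-24) above the median gene.

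Among the 10 genes furthest below the median gene, RAD9, an adaptor of the DNA damage checkpoint, had 0.107, 0.319 and 0.227 T>C RPM with IAA, against 3.95, 5.83 and 2.98 with DMSO. These values come from 1, 2 and 2 T>C reads with IAA, against 40, 63 and 27 with DMSO, so the IAA level rests on very few reads. RAD9 lay at -2.80 ± 0.54 (SE, adjusted p = 7.6e-06) in new RNA and -1.31 in total reads. PIK1, a phosphatidylinositol 4-kinase, had 0.213, 0.637 and 0.113 T>C RPM with IAA, against 4.94, 3.42 and 6.63 with DMSO, and was at -2.53 ± 0.48 (SE, adjusted p = 6.9e-06). DAD1, of the kinetochore Dam1 complex, was at -2.38 ± 0.49 (SE, adjusted p = 3.7e-05). The remaining 5 were the mitochondrial genes CMC2, PET100 and MRX11, the SUMO protease gene ULP1 and the proteasome gene SCL1, at -2.17, -2.16, -1.98, -2.06 and -2.09. DNA damage checkpoint and repair, the list that holds RAD9, had 5 of 20 tested genes below and 0 above (42 listed), with a median of -0.63 in T>C reads and -0.34 in total reads, and the kinetochore and spindle checkpoint list, which does not hold DAD1, 5 of 14 below and 0 above (28 listed), with -0.62 in T>C reads and -0.90 in total reads.

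The transcription machinery itself lay mostly at or below the median gene. TFIID, with which Bdf1 associates, had 3 of 12 tested genes below and 0 above, out of 15 listed, with a median of -0.54 in T>C reads and -0.42 in total reads. Other general transcription factors had 3 of 12 tested genes below, out of 17 listed, with a median of -0.65 in T>C reads and -0.50 in total reads, and TFA1, the large subunit of TFIIE, lay at -1.02 ± 0.26 (SE, adjusted p = 0.00079). Mediator had 2 of 13 tested genes below (25 listed), SAGA 2 of 9 (14 listed), and RNA polymerase II 2 of 11 (12 listed), with 0 above in each and medians of -0.40, -0.28 and -0.16 in T>C reads. The shares below were 15.4%, 22.2% and 18.2%, against 13.0% of all tested genes, so for Mediator and RNA polymerase II they were near that of all genes. Sequence-specific transcription factors lay higher. Of 54 listed genes 42 were tested, 12 (28.6%) lay above the median gene and 1 (2.38%) below, with a median of 0.39 in T>C reads and 0.25 in total reads. The share above was near the 23.1% of all tested genes. GCN4, the activator of amino acid synthesis genes, was 1.16 ± 0.13 (SE, adjusted p = 1.3e-13) above, and the amino acid synthesis genes had 24 of 51 tested genes above and 1 below, out of 60 listed, with a median of 0.75 in T>C reads and 0.80 in total reads.

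Some lists stayed near the median gene in new RNA but lay above it in total reads. The tRNA synthetases had 1 of 18 tested genes below and 2 above in T>C reads, out of 18 listed, but 17 above in total reads, with medians of -0.11 in T>C reads and 0.62 in total reads. VAS1, the valyl-tRNA synthetase gene, was the 1 member called below, so in new RNA it differed from the list as a whole. VAS1 had 4.16, 3.66 and 4.76 T>C RPM with IAA, against 20.2, 21.2 and 18.6 with DMSO. Its total reads came to 809, 785 and 767 RPM of total reads with IAA, against 1011, 896 and 909 with DMSO. New RNA of VAS1 was lower in every IAA library and lay at -0.68 ± 0.19 (SE, adjusted p = 0.002) relative to the median gene, while its total reads, also lower in every IAA library, were 0.68 above it. For the vacuolar proton pump, which acidifies the vacuole, 14 of 15 listed genes were tested and all 14 lay above in total reads, with medians of 0.06 in T>C reads and 0.57 in total reads. Its most read gene VMA3 was 0.23 ± 0.22 (SE, adjusted p = 0.41) from the median gene in T>C reads and 0.71 above it in total reads. A pattern in the opposite sense, further above in new than in total RNA, was seen for glycolysis, at 1.78 in T>C reads and 1.30 in total reads. It was not particular to glycolysis. The general stress response, ribosomal DNA intervals, small nucleolar RNAs, histones and the tricarboxylic acid cycle showed the same order.

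Genes that RNA polymerase II does not transcribe, and its short noncoding products, mostly lay above the median gene. Of 22 ribosomal DNA intervals, transcribed by RNA polymerase I or III, 17 were tested and 17 lay above, with a median of 1.67 in T>C reads and 1.40 in total reads. RDN18-2, an 18S rRNA interval, had 40.9, 41.6 and 32.3 T>C RPM with IAA, against 32.3, 23.7 and 31.7 with DMSO, and the intervals overlap one another and share reads between copies, so they are not separate measurements. Of 8 mitochondrially encoded protein genes, transcribed by the mitochondrial RNA polymerase, 4 were tested and 3 lay above, with a median of 1.43 in T>C reads and 1.06 in total reads. OLI1, for a subunit of the ATP synthase ring, had 9.82, 13.2 and 6.46 T>C RPM with IAA, against 14.1, 7.86 and 7.40 with DMSO, and its groups overlapped. The small nucleolar RNAs, which guide rRNA modification, had 42 of 57 tested genes above and 0 below, out of 79 listed, with a median of 1.57 in T>C reads and 1.20 in total reads. SNR40 had 4.70, 7.01 and 5.32 T>C RPM with IAA, against 4.74, 4.16 and 4.97 with DMSO. The groups overlapped per read, and SNR40 was 1.82 ± 0.22 (SE, adjusted p = 9e-12) above the median gene. Some small nucleolar RNA intervals overlap on the same strand, as SNR61 with SNR55 and SNR41 with SNR70, so they are not all separate measurements. The study built libraries for 3′ mRNA sequencing. How well such libraries report ribosomal, small nucleolar and mitochondrial RNAs was not tested.

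The 34 genes whose new RNA rose per S. cerevisiae read included 8 genes of glycolysis and fermentation, 6 of the general stress response, 5 small nucleolar RNAs and 2 ribosomal DNA intervals. Among the small nucleolar RNAs, the SNR61 and SNR55 intervals overlap, as do those of SNR41 and SNR70. In 30 of the 34 the IAA and DMSO libraries did not overlap, which is no separate support, as the same libraries gave the calls. Of the 34, 28 rose in total reads as well and 0 fell. Scaling by S. pombe reads in place of S. cerevisiae reads shifted the median change of new RNA by -0.18, after which 13 of the 34 still rose and no gene was added. Named after their values were seen, these 13 were HSP12, DDR2, STF2 and RTC3, which are stress-induced, GLK1, TDH2, ENO1 and PGM2 of sugar metabolism, ARG1 and SER3 of arginine and serine synthesis, HRP1, NRD1 and the small nucleolar RNA gene SNR61. SER3 had 7.37, 9.56 and 7.14 T>C RPM with IAA, against 2.96, 3.33 and 3.09 with DMSO. Its groups did not overlap, and the log2 change per S. cerevisiae read was 1.34 (adjusted p = 1.6e-07). The intervals of SER3 and GLK1 each overlap another interval on the same strand, so reads may be shared with it.

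The level of a gene moved with the size of its fall. The tested genes were split into 5 bins by their total reads in DMSO. In the bin with the most reads (736 genes, median 353 RPM) the median lay at 0.52 in new RNA and 0.89 in total reads relative to all genes, and in the next to lowest bin (735 genes) at -0.33 and -0.46. The bin with the fewest reads lay at 0.22 in T>C reads. There the requirement of a T>C read in every library bears on the value, since a gene with few reads passes only if its IAA libraries held some. When the genes were instead required to average 5 or more T>C reads over the libraries, the median gene fell 3.72-fold, and the 916 genes so added had a median log2 change of -2.91, with 890 lower and 0 higher. Genes with a steep fall were therefore under-represented among the 3677, and against the wider set of genes the lists lay higher, with medians of 2.07 for glycolysis, 0.78 for large ribosomal subunit proteins, -0.32 for ribosome biogenesis factors and -0.23 for the proteasome. The spliceosome, of whose 64 listed genes 34 were tested under the stricter rule, lay lower, at -0.95. UBP12, a ubiquitin protease gene chosen after its values were seen, was not tested under the stricter rule and had 0, 0 and 1 T>C reads with IAA, against 31, 42 and 24 with DMSO. When genes were split by labelled share in DMSO, the lowest bin (736 genes, median 1.91%) lay at 0.43 in T>C reads and 0.82 in total reads. The highest bin (736 genes, median 12.9%) lay at 0.07 and -0.09. The part that read level, labelled share or the filter has in the values of single lists was not tested.

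**Figure D4:**
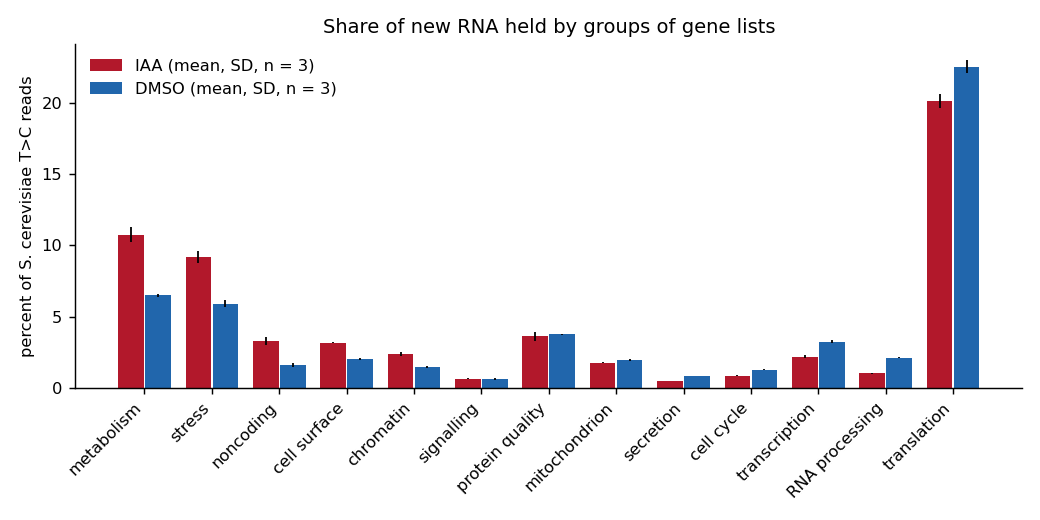
Share of all S. cerevisiae T>C reads, in percent, held by broad groups of gene lists, with IAA in red left of DMSO in blue. Bars are means and error bars SD of 3 libraries. Metabolism holds 10.7% with IAA and 6.49% with DMSO, and translation 20.1% with IAA and 22.6% with DMSO.

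As shares of the new RNA, the metabolism and stress groups as wholes took more of the reads in IAA libraries and RNA handling took less. The lists of metabolism together held 10.7% ± 0.507 of T>C reads with IAA and 6.49% ± 0.0971 with DMSO, and those of stress 9.17% ± 0.427 with IAA and 5.90% ± 0.249 with DMSO. Single lists carried much of this. Glycolysis and fermentation held 6.99% with IAA and 3.19% with DMSO, and oxidative stress defence 6.22% with IAA and 4.02% with DMSO. Nucleotide synthesis, fatty acid and phospholipid synthesis and iron uptake had lower mean shares with IAA, and the other metabolism lists higher ones. RNA processing held 1.01% ± 0.0235 with IAA and 2.11% ± 0.0311 with DMSO, and transcription 2.19% ± 0.0960 with IAA and 3.23% ± 0.105 with DMSO (SD, n = 3 each). For each of these 4 groups the libraries did not overlap between IAA and DMSO (exact permutation test, p = 0.1, the smallest possible). Protein quality control held 3.61% ± 0.299 with IAA and 3.76% ± 0.0381 with DMSO, a difference within the spread of the libraries (exact permutation test, p = 0.6).

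Motif words were counted in the window from 350 to 101 bases before the start codon of 5994 genes, on both strands. The TATA box was searched as TATAAAAA, TATAAAAG, TATAAATA, TATAAATG, TATATAAA, TATATAAG, TATATATA and TATATATG, and these words can overlap each other. It was found in 33.9% of all promoters, in 28.1% of those of genes below the median gene in new RNA, in 51.4% of those above and in 28.4% of the other tested genes. The stress response element AGGGG was found in 20.1% of all promoters, in 11.1% of those below and in 29.3% of those above. It was present in 36 of the 39 general stress response genes. The PAC element GATGAG went the other way, with 15.9% of all promoters, 23.3% of those below and 14.1% of those above, and it was present in 83 of the 134 ribosome biogenesis genes. The Reb1 site TTACCCG was in 10.5% of promoters below, 5.06% of those above and 12.8% of the other tested genes, against 8.23% of all. The heat shock element (GAANNTTC or TTCNNGAA) was in 19.7% of promoters below and 20.0% of those above, near its share of 19.5% in all promoters. It was present in 21 of the 24 heat shock chaperone genes. Shares for the Rap1 core ACCCANACA, the proteasome element GGTGGCAAA, the Gcn4 site TGACTCA and the MCB element ACGCGT were each under 4% in both classes. The proteasome element was in 21 of the 33 proteasome genes and the Gcn4 site in 28 of the 60 amino acid synthesis genes. The genes called are those the test itself chose, and a word in the window is a description of the letters, not of a bound factor.

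**Figure D5:**
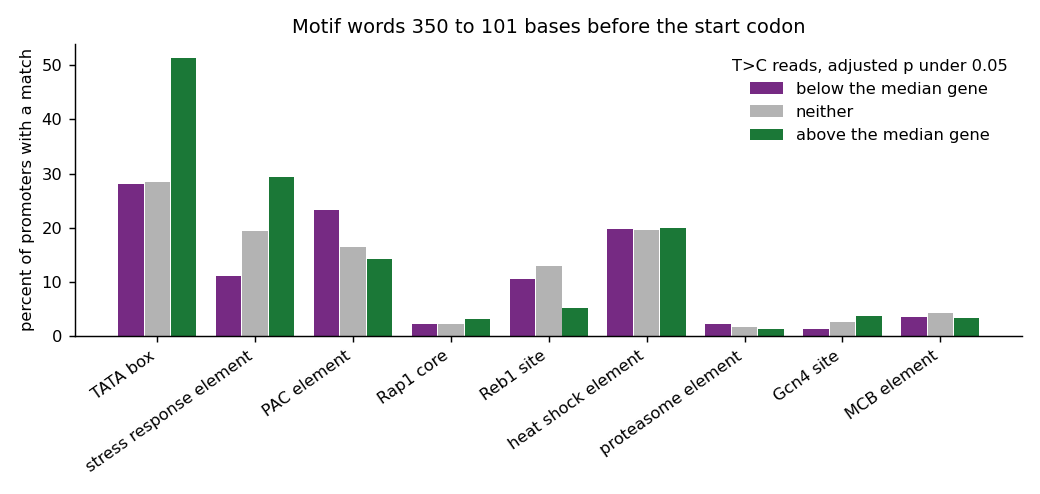
Percent of promoter windows with at least 1 match to each motif, for genes below the median gene (purple), neither (grey) and above (green) in T>C reads at adjusted p under 0.05. The TATA box is in 51.4% of promoters above and 28.1% of those below, and the PAC element in 14.1% of those above and 23.3% of those below.

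Within the 5 bins of genes by total reads in DMSO, genes with either motif of the genes above had higher medians than genes without. Genes with a TATA box had median changes of 0.32, -0.26, 0.06, 0.06 and 0.95 in the bins with the fewest to the most reads, against -0.01, -0.37, -0.28, -0.27 and 0.40 for genes without. For the stress response element the medians were 0.40, -0.11, 0.23, 0.19 and 0.90 with the word, against 0.04, -0.38, -0.28, -0.25 and 0.46 without. The order was not kept in every bin for the PAC element, whose genes lay at 0.23, -0.48, -0.37, -0.37 and 0.28 with the word, against 0.10, -0.31, -0.10, -0.12 and 0.58 without, higher with the word in the lowest bin and lower in the others.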

How the data were processed

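The authors trimmed reads with fastp 0.23.2 and aligned and counted them with SLAM-DUNK 0.4.3 on R64 (S. cerevisiae) and ASM294v2 (S. pombe). The deposited tables give, per gene interval, counts of all reads and counts of T>C reads, along with a CPM value that the authors computed and that was not used here. The 6465 S. cerevisiae intervals mostly run past the gene's 3′ end by 250 bases. Counts were tested with edgeR 4.0.16 in R 4.3.3 (quasi-likelihood test on a model of 4 group means over all 12 libraries, Benjamini-Hochberg over the 3677 genes that had a T>C read in each library). Offsets were the sum of S. cerevisiae reads or, for the centred fit, median-of-ratios factors of the counts tested. Fold changes are IAA over DMSO. RPM values are counts divided by the S. cerevisiae reads of the library. The number of T>C reads, 90321 to 290721 per library, limits precision at low genes. The labels give letters A to C per group, and the study's methods call them biological replicates. Whether the same letter marks paired IAA and DMSO cultures is not stated. Same-letter deviations correlated at 0.011, -0.013 and 0.007 over 1785 genes, so no shared effect of a letter was seen, and the libraries were treated as unpaired.

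Named genes were the 10 furthest below and above the median gene among those with adjusted p under 0.05, an average of 20 or more T>C reads, no overlap between groups or with another interval, and at most 10% multimapping reads, together with the 3 most read tested members of each list. The groups, 57 gene lists and motifs were chosen with earlier results of these data known. The scripts were tested on simulated counts. Alternatives were other scalings and filters, DESeq2 1.42.0, a replicate block, leaving out intervals that overlap, and leaving out each library.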

Additional observations from a re-analysis of the deposited data

Results flagged for a closer look

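The changes relative to the median gene were compared with those of the other strain, RDY388, which overexpresses the ET domain of Bdf1. By edgeR's test of the difference, 5 of 3677 genes differed in T>C reads at adjusted p under 0.05 (254 at unadjusted p under 0.05), and 0 in total reads (388 unadjusted). For RDN37-1, the precursor interval of the ribosomal RNAs, the log2 change in RDY73 minus that in the other strain was 0.67 (adjusted p = 0.038), from 521, 497 and 490 T>C reads with IAA, against 535, 594 and 555 with DMSO in RDY73, and from 540, 427 and 592 with IAA, against 683, 659 and 688 with DMSO in the other strain. Of the other calls, RDN25-1, ITS2-1 and RDN58-1 are intervals nested within it. For PIK1 the difference was -2.50 (adjusted p = 0.040), from 2, 4 and 1 T>C reads with IAA, against 50, 37 and 60 with DMSO in RDY73, and from 15, 16 and 16 with IAA, against 37, 49 and 42 with DMSO in the other strain.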

How the results depend on the processing

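The direction of the fall at the median gene and of the leading lists held under the alternatives run, while counts depended on scaling and filter. Scaled by size factors of all reads, 1054 genes fell and 525 rose in T>C reads, and scaled by S. pombe reads 13 rose in T>C reads and 81 in total reads, the last added after seeing the data. With no filter 739 genes lay below the centre of the fit in T>C reads and 4497 fell in total reads, more genes being tested. That centre came from genes with a T>C read in every library. The median of the 6101 genes tested lay at -0.43 relative to it, so 739 is not a count against their median gene. DESeq2 called 2804 fallen and 27 risen, and 324 below and 798 above. The replicate block, whose letters are not known to pair the libraries, gave 2942 fallen and 37 risen, 466 below and 851 above. In total reads it gave 2683 fallen, 341 risen, 1501 below and 1525 above.

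A filter of a mean of 5 or of 20 T>C reads changed the median gene and the members tested, and list medians were 0.78 and 0.25 for large and 0.81 and 0.28 for small ribosomal subunit proteins, -0.32 and -0.78 for ribosome biogenesis factors, 1.68 and 1.15 for histones, -0.95 and -1.15 for the spliceosome, -0.23 and -0.76 for the proteasome, 0.93 and 0.43 for heat shock chaperones, -0.46 and -0.98 for the chaperonin and prefoldin, 1.45 and 0.93 for oxidative stress defence, 2.07 and 1.54 for glycolysis, and -0.54 and -0.99 for the mitochondrial ribosome. The general stress response lay at 1.98 with a mean of 5, and the spliceosome at -0.90 without overlapping intervals. Lists near the median gene changed sign under some alternative, among them the vacuolar proton pump, tRNA synthetases, RNA polymerase II subunits and translation initiation factors. In total reads EBP2 and NUP1, at -0.22 and -0.19, were at 0.0094 and 0.038 with a mean of 5 and at 0.0058 and 0.034 with no filter.

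Leaving out each library in turn gave 2719 to 2875 genes fallen and 26 to 35 risen in T>C reads, 314 to 422 below and 728 to 790 above the median gene, and in total reads 2585 to 2673 fallen, 296 to 309 risen, 1401 to 1454 below and 1465 to 1487 above. List medians ranged between -0.89 and -0.65 for the spliceosome, -0.89 and -0.55 for the chaperonin and prefoldin, and 1.56 and 1.80 for the general stress response. RLP7 was among the named genes that lost their call when 1 library was left out. Low counts limit the genes below the median gene: RAD9 and PIK1 had between 1 and 4 T>C reads in each IAA library, and genes with none in some library were not tested.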
